A study of Populus x canadensis with 4 samples.

Results

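The untreated leaf library of the hybrid poplar Populus × euramericana 'Neva', labelled with the synonym Populus x canadensis, is 1 of the 4 small RNA libraries of a dose series, chosen by its label of 0 mM pHBA. This compound, para-hydroxybenzoic acid, is a phenolic that plants release into soil. The plants were rooted from stem cuttings and grown in water culture, and all 4 treatments, at 0, 2, 4 and 8 mM, began on 90-day plants and lasted 3 days. The untreated leaves came from the 0 mM solution and, as in every treatment, their RNA was pooled in equal parts before sequencing. The sources used here do not give how many plants went into the mix. With 1 pooled library there is no replicate, so no value below has an error between plants and no test was made. No list of leaf markers was applied, so the tissue label was not checked.

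MicroRNAs of plants are cut from hairpin-shaped transcripts by the enzyme DCL1 as a duplex of a guide strand and its partner from the other arm of the hairpin. The guide strand is kept in an Argonaute protein, mostly AGO1, which favours a 5′ uracil, and directs cutting or silencing of matching messenger RNA. Guides of 21 nt are the usual product, whereas guides of 22 nt are known to trigger secondary small RNAs from their targets.

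The library held 2640653 reads on 409 of the 529 sequences in the table, from 94 of 120 named families and 26 of 44 predicted candidates. Small RNA reads that match none of the listed sequences are not included. Lengths, first bases and all shares below are thus of the listed reads only, also where the text says library. The other 120 sequences were listed at 0 reads, which allows up to 3 reads, or 4.07 normalized read counts, for each. Levels are the authors' normalized read counts, the raw count times 1.356 for this library, with no division by length, since 1 read is 1 small RNA. Shares are percentages of the reads with a Wilson 95% interval in brackets where given. The intervals and this limit cover counting error only, and reads copied by PCR are not independent molecules. How evenly library preparation captured different sequences was not tested. Shares, ranks and ratios of arms below are thus of reads and may differ from those of molecules in the leaf. Reads of a sequence listed in several rows were summed over the rows, and shares with 1 row used once are given where they differ most. In the names, L and R count bases gained or lost at the 5′ and 3′ end, ss marks a base difference, and MIR with p5 or p3 marks a sequence placed on an arm of a hairpin.

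Most of the library belonged to miR472, miR482 and miR1448, families that guide silencing of NBS-LRR disease resistance genes. The 5 most abundant of them, given here because their letters show how alike they are, stood at 798946 (ptc-miR472a), 475115 (ptc-miR1448_L+1R+1), 454856 (ptc-miR472b), 377899 (ptc-miR482a.1_L+5) and 112097 (ptc-miR482c-3p) normalized read counts. Capitals mark the bases that are the same in all 5, and the letters are those of the deposited table, with T for uracil.
ptc-miR472a: TtTTcCCtActCCaCCCATcCC
ptc-miR1448_L+1R+1: TcTTtCCaAcgCCtCCCATaCC
ptc-miR472b: TtTTcCCaActCCaCCCATcCC
ptc-miR482a.1_L+5: TcTTgCCtActCCtCCCATtCC
ptc-miR482c-3p: TcTTtCCgAgtCCtCCCATaCC
These 5 share 15 of their 22 positions, among them an unbroken run from position 15 to 19. Compared with ptc-miR472a and counting from 1 at the 5′ end, ptc-miR472b carries the single difference T8A. ptc-miR482a.1_L+5 differs by T2C, C5G, A14T and C20T, and each of the other 2 differs at 6 positions. The changes at positions 2, 5 and 8 fall in the seed, bases 2 to 8, so the 5 sequences have 5 different seeds. Grouping by seed would therefore place each of them apart.

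Levels fell quickly with rank. The single sequence ptc-miR472a held 22.3% of all reads, the first 5 sequences of the library held 72.4%, the first 10 held 83.0% and the first 20 held 89.96%. It took 4 sequences to reach 50% of the reads, 21 to reach 90% and 88 to reach 99%. At the other end, 251 of the 409 detected sequences had fewer than 100 reads and together made up 0.245% of the library, and the median sequence had 46 reads. The counts are deep for the leading families and thin for the rest: 78 sequences had fewer than 10 reads, where a level is set by a handful of reads.

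**Figure D1:**
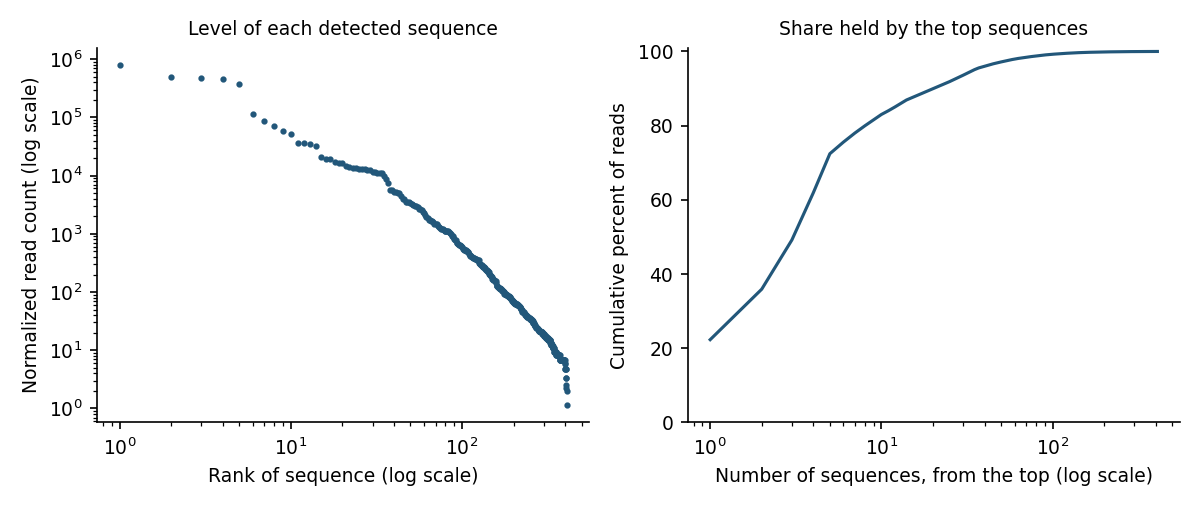
Level of each of the 409 detected sequences by rank (left, both axes on log scales, normalized read counts) and the cumulative percent of reads held by the top sequences (right, log scale on the x axis). The first 5 sequences stand above the rest and hold 72.4% of the reads, and 88 sequences hold 99%.

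By family, miR472 held 35.0% of the reads (35.0 to 35.1), miR482 15.8% (15.7 to 15.8) and miR1448 13.6% (13.6 to 13.7), or 64.5% together (64.4 to 64.5). The 3 families stood at 1255111, 565186 and 488524 normalized read counts. Read once per repeated sequence, in place of the sum over rows, their joint share was 82.2%. The table gives 1 row to each of the 5 sequences above and 12 rows to ptc-miR166a. Of the disease resistance list, which adds miR2118, 24 of 27 sequences were detected, against 409 of 529 over all listed sequences. miR2118, which has the same class of targets in other plants, had 31 reads in 2 sequences, 42 normalized read counts. The 2 leading members of miR472 share its reads unevenly, with ptc-miR472a at 63.7% and ptc-miR472b at 36.2%. miR482 was divided over 16 sequences, of which ptc-miR482a.1_L+5 held 66.9%, ptc-miR482c-3p 19.8%, ptc-miR482d-3p 10.3% and ptc-miR482b-3p 0.779%. The last 2, shown next with the seed in capitals, are farther from the rest of the family.
ptc-miR482d-3p: tTGCCGACcccacccatgccaa
ptc-miR482b-3p: tTACCAATacctctcatgccaa
Set against ptc-miR482a.1_L+5 they match best when their start is moved by 2 bases, and then still differ at 4 and 6 bases. Their levels were 58365 and 4405 normalized read counts, and how the counting treated near-identical members of a family was not tested.

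**Figure D2:**
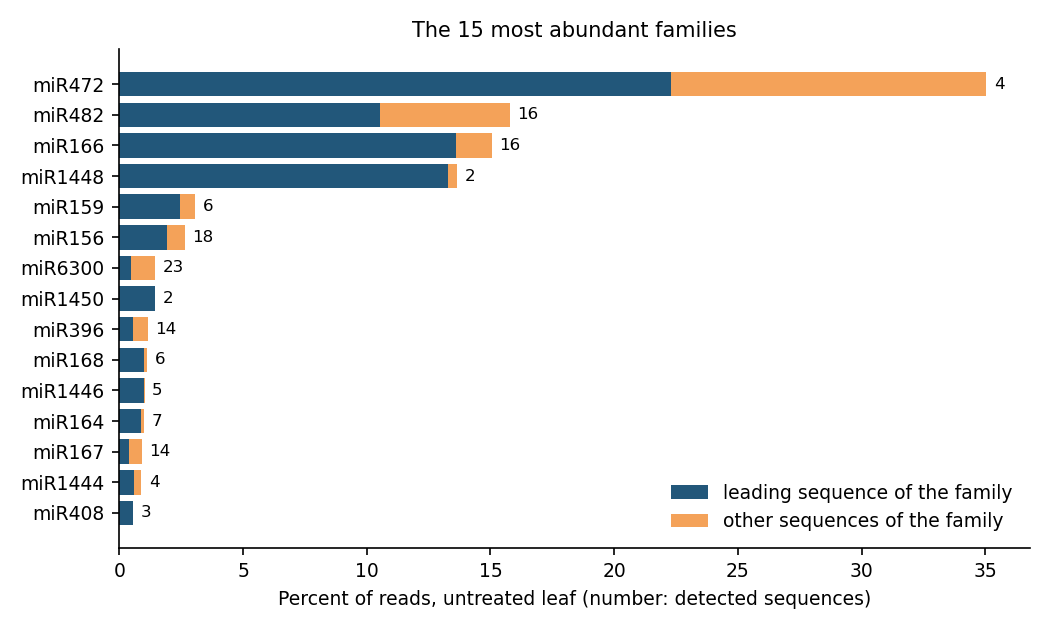
Percent of reads of the 15 most abundant families in the untreated leaf library. Bars start at 0, blue is the leading sequence of the family, orange its other sequences, and the number beside a bar is how many sequences were detected. miR472, miR482, miR166 and miR1448 stand apart at 13.6% to 35.0%, and the next family, miR159, held 3.06%.

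The 15 most abundant families held 94.8% of the reads and the first 5 held 82.6%, while 12 families reached 1%. In 5 of these 15 families the leading sequence held at least 90% of the family, up to 99.9% in miR1450 and 98.7% in miR1446. In 3 it held under 60%, namely miR6300, miR396 and miR167. Leading sequences of 8 of the larger families are printed with the seed in capitals, to show that families in the next tier share no seed with the resistance-linked block or with each other.
ptc-miR166a: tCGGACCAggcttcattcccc
ptc-miR159a: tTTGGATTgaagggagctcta
ptc-miR156g: tTGACAGAagatagagagcac
ptc-miR1450_R-1: tTCAATGGctcggtcaggtta
ptc-miR168a-5p: tCGCTTGGtgcaggtcgggaa
ptc-miR1446a_R+1: tTCTGAACtctctccctcaac
ptc-miR164a: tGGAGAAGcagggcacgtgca
ptc-miR396a: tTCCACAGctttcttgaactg
All 409 detected sequences fall into 312 seeds, of which 9 occur in more than 1 family, or in a family and a candidate. In the 3 with most reads, almost all reads belonged to 1 family. ptc-miR1448_L+1R+1, with 350315 of the 350320 reads, shares CTTTCCA with a miR482 sequence. ptc-miR472b shares its seed with a miR2118 sequence of 26 reads, and ptc-miR156g shares TGACAGA with the related miR157, which had 24 reads.

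Families that control leaf development came next, with 79 of 99 listed sequences detected and 23.2% of the reads (23.1 to 23.2). miR166, whose targets are the HD-ZIP III genes that set the upper side of the leaf, held most of that at 539459 normalized read counts. miR159, which targets GAMYB-like transcription factors, stood at 109564, and miR156, which targets the SPL genes of the juvenile to adult change, at 94502. miR172, which acts on AP2-like genes and in many plants goes up as miR156 goes down with age, stood at 1946 normalized read counts, far under miR156. miR396, which targets growth-regulating factors, stood at 40740 and miR164, which targets NAC genes of organ boundaries, at 36045. miR394, a regulator of the F-box gene LCR, stood at 5691, and miR319, which targets TCP genes of leaf shape, at 1202. miR157 had 24 reads in 1 sequence, and miR165 had no sequence in the table.

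Families of hormone, metal and nutrient control held far fewer reads. The auxin list had 34 of 43 sequences detected and 1.503% of the reads. In it miR167, which targets auxin response factors, stood at 32425 normalized read counts and miR393, which targets the TIR1 and AFB auxin receptors, at 15141. miR160, which targets another set of auxin response factors, stood at 5921 and miR390, which starts processing of the TAS3 precursor, at 336. All 18 copper and laccase sequences in the table were detected, with 1.99% of the reads. miR1444, which targets polyphenol oxidases, led with 31971 normalized read counts, followed by miR408, which targets plantacyanin and laccase genes, at 20063, and miR398, which targets copper/zinc superoxide dismutases, at 17879. miR397, which targets laccases, stood at 1278, and miR857 had no sequence in the table. The phosphate and sulphate list had 14 of 18 sequences detected and 0.0452% of the reads. miR827, a regulator of SPX-domain genes, stood at 1151 and miR399, which targets the phosphate regulator PHO2, at 419 normalized read counts. miR395, which targets genes of sulphate assimilation, stood at 47.5 over both arms. Most of that was on the 5′ arm, with ptc-MIR395b-p5 at 17.6 and ptc-MIR395a-p5 at 14.9. ptc-miR395b and ptc-miR395a stood at 8.14 and 6.78. miR2111 was listed at 0 reads. No starved plants were measured beside these.

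The microRNAs that act on the small RNA machinery itself had 15 of 16 sequences detected and 1.62% of the reads. miR168, which targets AGO1, stood at 40587 normalized read counts, miR162, which targets DCL1, at 13039 and miR403, which targets AGO2, at 4272. In miR403 the leading sequence was ptc-miR403c-5p at 2554, ahead of ptc-miR403a, from the 3′ arm, at 1661. Family totals here count sequences of both arms, and which strand acts on the target was not tested. The GRAS and NF-YA list had 39 of 50 detected and 0.754% of the reads. miR473 stood at 12947, miR171, which targets SCARECROW-like genes, at 3709 and miR477 at 1743, while miR169, which targets NF-YA genes, stood at 8610 over 22 sequences. No miR170 sequence was in the table. Among the MYB regulators of the phenylpropanoid pathway, miR858 stood at 1665 and miR828 at 100 normalized read counts, with 3 of 5 sequences detected. The pentatricopeptide repeat list had all 8 sequences detected, with miR475 at 15121 and miR476 at 1378. The sequence that led each family adds detail to these totals. In leaf development, ptc-miR394a-5p stood at 5600, ptc-miR172a at 1710 and ptc-miR319a at 773 normalized read counts, and miR157 was ath-miR157d_L+1 alone. In the auxin list, ptc-miR393a-5p_R+1 led miR393 at 11032, ptc-miR160a led miR160 at 4006 and ptc-miR390a led miR390 at 277. In the copper and laccase list, ptc-miR1444a_R+1 stood at 21054, ptc-miR398b at 17252 and ptc-miR397a at 1122. ptc-miR398b held 96.5% of its family and ptc-miR1444a_R+1 65.9%, with ptc-MIR1444c-p3_1ss3CT next in miR1444 at 9686. Among nutrient families, ptc-miR827 stood at 1115 and ptc-MIR395b-p5 at 17.6, while ptc-miR399f held 37.5% of miR399. ptc-miR162a stood at 12726 and held 97.6% of miR162. In the GRAS and NF-YA list, ptc-miR473a-5p_R+1 stood at 12334, ptc-miR169u-5p_1ss16TA at 3491, ptc-MIR171a-p3 at 2659 and ptc-miR477a-5p at 816. ath-miR858b led miR858 at 1644, ptc-miR828a was the one miR828 sequence with reads, at 100, and ptc-miR476a led miR476 at 1198. In miR2118 the lead was hbr-MIR2118-p5_2ss2GT20TC at 35.3.

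Over all lists, the median detected sequence had 726.5 reads in the disease resistance list and 332 in the copper and laccase list. That compares with 67 in leaf development, 12.5 in phosphate and sulphate and 46 over all 409 sequences. The 134 detected sequences on no list held 4.002% of the reads. Detection counts of the lists are to be read beside 409 of 529 over all sequences, and no difference from that was tested.

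Length and first base showed the library in different ways by reads and by sequences. Sequences of 22 nt held 65.6% of the reads (65.5 to 65.6) and those of 21 nt held 31.9% (31.8 to 31.9). Counting each detected sequence once, 22 nt made up 17.1% and 21 nt 46.9%. With 1 row used once the shares of reads were 83.2% and 15.1%. Within miR472, miR482 and miR1448, 99.3% of the reads were of 22 nt, and outside them 88.5% were of 21 nt and 4.47% of 22 nt. By reads the 22 nt class was thus almost all made of those families. The 22 nt sequences with most reads elsewhere were ptc-miR167f-5p_R+1 at 13903, ptc-miR393a-5p_R+1 at 11032 and ptc-MIR1447-p5 at 5243 normalized read counts.

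A 5′ T was found in 94.7% of the reads (94.7 to 94.8) but in 46.9% of the detected sequences. Outside miR472, miR482 and miR1448 it was found in 86.2% of the reads. At 21 and 22 nt most reads began with T, and at 22 nt it was 99.4%. G began most reads at 18, 23, 24 and 25 nt, with 87.7%, 81.6%, 89.04% and 61.6%, and all of those classes were led by forms named miR6300. The most abundant sequences with another first base are printed with the seed in capitals.
ptc-miR408-3p: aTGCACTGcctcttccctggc
ptc-miR1447: cAGAATTGcagtgccttgatt
gma-miR6300: gTCGTTGTagtatagtgg
ptc-miR408-3p, at 18981 normalized read counts, held 28.04% of the reads that begin with A. ptc-miR1447, at 12461, held 29.1% of those that begin with C, and gma-miR6300, at 16341, held 20.98% of those that begin with G. The last base was C in 83.2% of the reads and in 31.1% of the sequences. The most abundant sequence of each other length was gma-miR6300 at 18 nt, ptc-miR167a_R-2 at 19, ptc-miR156a at 20, gma-miR6300_R+5_1 at 23, gma-miR6300_R+6_1 at 24 and gma-miR6300_R+7_1 at 25 nt.

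**Figure D3:**
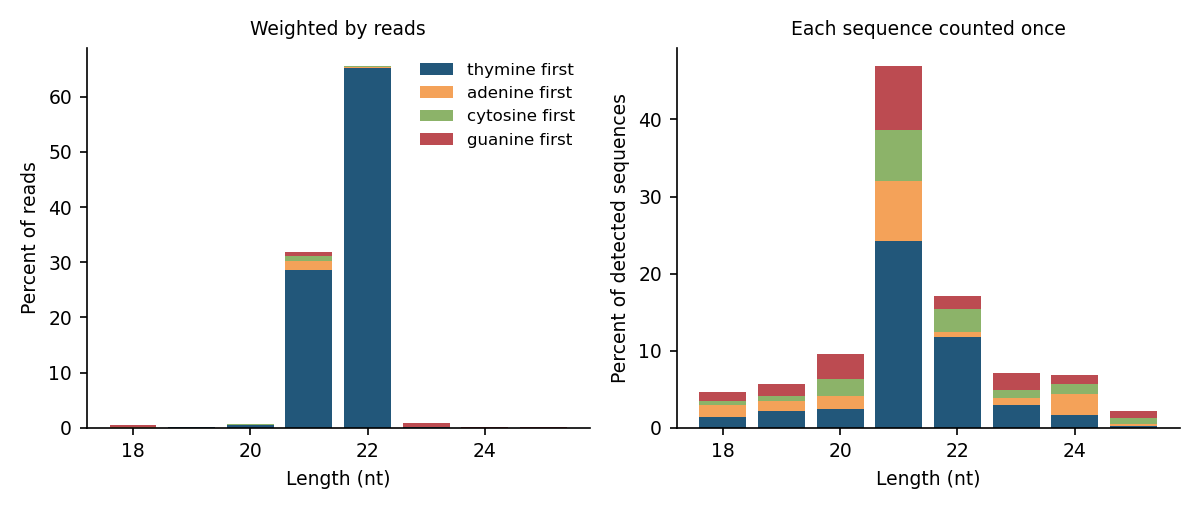
Length of the sequences in nt, with colours for the first base, as percent of reads (left) and as percent of the 409 detected sequences, each counted once (right). Bars start at 0. By reads 22 nt and a first T prevail, at 65.6% and 94.7%, and by sequences 21 nt leads with 46.9%.

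The arms of the hairpins were read very unevenly. Of the reads, 87.8% lay on names that give no arm. Of the reads with a named arm, 66.4% were on the 3′ arm (66.2 to 66.6) and 33.6% on the 5′ arm, and by sequences the 3′ arm had 120 of 251. A sequence without an arm in its name was set on the other side where its hairpin has 1 named arm. This covered 94.5% of the reads, of which 92.02% lay on the 3′ side. Without miR472, miR482 and miR1448 the 3′ side had 77.3%, and without miR166 as well it had 56.6%. Hairpins with both arms named numbered 39, of which 28 had at least 100 reads. Among these 28, the larger arm was the 3′ arm in 16 and the 5′ arm in 12. It held a median of 93.3% of the hairpin's reads and at least 90% in 17. These 28 are not all separate. ptc-miR171a and ptc-miR171b share the same 3′ arm sequence, and bra-miR168a has the strands of ptc-miR168a with changed ends. gma-miR5368 and peu-miR2916, whose letters are like tRNA or rRNA pieces, are also counted. So is gma-miR4995, which is among the 12 and the 17. Its 3′ sequence starts with the last letters of its 5′ sequence, so these may not be 2 arms. Among the 39 but not the 28, gra-miR8698 and ath-miR5665 have nearly the same letters under both arm names.

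Pairs of arms show how the duplex is made, so 3 are printed with the bases that pair in capitals, in the best register without gaps, counting G with T.
ptc-miR168a-5p: TCGcTTGGTGCAGGtCGGGaa
ptc-miR168a-3p: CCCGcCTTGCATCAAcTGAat
ptc-miR482c-5p: TATGGGAGaGgcgGGAAtGAct
ptc-miR482c-3p: TCtTTCCgagTcCTCCCATAcc
ptc-MIR475a-p5: TTGATCAATGGcCATTGTAAg
ptc-miR475a-3p: TTACAGTGcCCATTGATTAAg
The miR168a strands pair at 17 of 19 facing bases and the miR482c strands at 15 of 20, each leaving 2 bases over at each 3′ end, as DCL1 cutting typically does. In the best ungapped register this held for 6 of the 28 hairpins with both arms named and at least 100 reads, and for 11 of 30 with 1 arm named. The miR475a strands pair at 19 of 20 with 1 base over. ptc-miR168a had 25855 reads on the 5′ arm and 3723 on the 3′ arm, 6.94 to 1. ptc-miR482c had 663 and 82652, a ratio of 125 towards the 3′ arm, and ptc-miR475a 1198 and 9879, a ratio of 8.25. Reads of an arm are summed over all its sequences, whereas pairing uses the most abundant one. The printed ptc-MIR475a-p5 had 1022 of the 1198 reads. Of the 5 most abundant hairpins with both arms named, ptc-miR482d had 1556 and 43034 reads, and gma-miR5368 had 1222 and 9996. In these 2 the ungapped register paired only 10 of 20 and 12 of 21 bases, and left no 3′ overhang of 2 bases. The paired 5′ arm sequence of gma-miR5368 had 813 of its 1222 reads.

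Among hairpins with 1 arm named, the 2 arms differed most in ptc-miR472b, ptc-miR164a and ptc-miR1450. ptc-miR472b had 335378 reads against 142 for ptc-MIR472b-p5, a ratio of 2362. ptc-miR164a had 23537 against 16 and ptc-miR1450_R-1 37914 against 33. Another 3′ arm sequence of the miR164 family, ptc-MIR164e-p3, had 2882 reads. Whether all ptc-miR164a reads came from 1 hairpin was not tested, so its ratio may be too high. ptc-miR472a had 589085 against 823, a ratio of 716. Not every abundant sequence had so scarce a partner. ptc-miR1448_L+1R+1 had 350315 against 9887, a ratio of 35.4, and ptc-miR166a 359369 against 8185, a ratio of 43.9, where the partner is a sequence that 4 hairpins of the family share. Some hairpins were read more evenly. Chosen after their values were seen, ptc-miR6427 had 943 reads on its 5′ arm and 809 on its 3′ arm, and ptc-miR396g had 231 and 213. ptc-miR1447, whose name gives no arm, had 9188 reads against 3866 for ptc-MIR1447-p5.

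**Figure D4:**
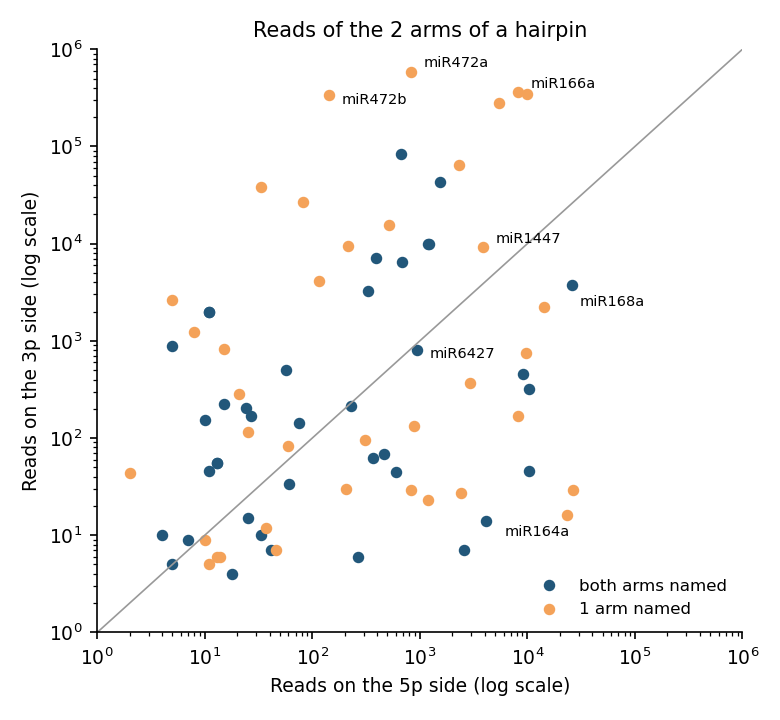
Reads on the 5p side (x axis) and the 3p side (y axis) of each hairpin, both on log scales, with 39 hairpins that have both arms named in blue and 37 with 1 arm named in orange. The grey line marks equal reads, and some hairpins share a sequence. miR472b lies high above it with 335378 against 142 reads, miR168a below it with 3723 against 25855, and miR6427 close to it.

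Names with a suffix for a changed end or base held 32.7% of the reads (32.6 to 32.7) and 51.6% of the detected sequences. A suffix does not mean a minor form. Of the 10 most abundant sequences, ptc-miR1448_L+1R+1, ptc-miR482a.1_L+5 and ptc-miR1450_R-1 carry one, and they are the leading sequences of their families. A longer 5′ end was named for 25.01% of the reads, mostly in the first 2 of these, and a longer 3′ end for 17.3%. Names with a base difference held 2.26%. The letters were checked against the names: of 264 named base changes, 258 had the stated letter at the stated position, and the other 6 had it once a shorter 5′ end was counted.

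Compared by letters alone, the leading sequences of the 94 families held 75.3% of the reads. Forms that differ from the leading one at 1 to 3 bases held 14.9%, most of it ptc-miR472b, and forms farther from the leading one held 7.48%. These were led by ptc-miR482c-3p and ptc-miR482d-3p, with 82652 and 43034 reads, and include sequences of the other arm. Forms that differ at the 3′ end only held 1.21% in 23 sequences, and forms with a moved 5′ end held 1.17% in 32 sequences. Most of the first class was miR6300, which resembles an end of a transfer RNA. Its forms with 5, 6 and 7 more bases held 16664, 3771 and 1317 of the 31956 reads that differ at the 3′ end only. A moved 5′ end changes the seed, a changed 3′ end does not. Of the reads with a moved 5′ end, 28070 of 30960 started 2 bases earlier. Most of these, 26967, were ptc-miR166n_L+2R-2, which is named for another member of its family. By letters alone, an end variant and such a member cannot be told apart.

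The miR166, miR167 and miR6300 families, picked after their values were seen, show these kinds of difference. Forms named for different members of a family need not be end variants of 1 another. In miR166, capitals mark letters outside a shared core of 18 bases.
ptc-miR166a: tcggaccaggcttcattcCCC
ptc-miR166n_L+2R-2: TCtcggaccaggcttcattcC
gma-miR166a-3p_L+1: AtcggaccaggcttcattcCCC
ptc-miR166a stood at 487394 normalized read counts, 90.3% of its family. The form that starts 2 bases earlier, ptc-miR166n_L+2R-2, stood at 36574, or 6.78%, with the same length of 21 nt but the seed CTCGGAC in place of CGGACCA. It is named for miR166n, whose hairpin has its own 5′ arm sequence, ptc-MIR166n-p5, pairing with it at 17 of 19 bases. The form with 1 base more at the 5′ end stood at 2379.

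In miR167 the forms differed at the other end. Capitals mark letters beyond a shared core of 19 bases.
ptc-miR167f-5p_R+1: tgaagctgccagcatgatcTTA
ptc-miR167e: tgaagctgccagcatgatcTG
ptc-miR167a_R-2: tgaagctgccagcatgatc
These stood at 13903, 11064 and 5189 normalized read counts, 42.9%, 34.1% and 16.002% of the family, and share the seed GAAGCTG. No form held most of the family. The forms that hold the core ranged from 19 to 23 nt, with 47.02% of their reads at 22 nt, 35.9% at 21 nt and 16.8% at 19 nt. Of miR166 forms that hold their core, 99.4% of the reads were of 21 nt. Single-base differences at the last position of 21 nt forms also occurred in other families. ptc-miR396c differs from ptc-miR396a by G21T and stood at 14489 against 19358, and mtr-miR159a_1ss21AT differs from ptc-miR159a by A21T and stood at 16133 against 87429. In miR156, ptc-miR156a, of 20 nt, stood at 13095 against 69626 for ptc-miR156g, of 21 nt.

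miR6300 was the family with most detected forms, 23. It was listed under a soybean name and resembles an end of a transfer RNA. Capitals mark letters beyond the 18 bases of gma-miR6300.
gma-miR6300: gtcgttgtagtatagtgg
gma-miR6300_R+2: gtcgttgtagtatagtggTA
gma-miR6300_R+3: gtcgttgtagtatagtggTGA
gma-miR6300_R+5_1: gtcgttgtagtatagtggTAAGT
gma-miR6300_R+5_2: gtcgttgtagtatagtggTGAGT
gma-miR6300_R+6_1: gtcgttgtagtatagtggTGAGTA
gma-miR6300_R+7_2: gtcgttgtagtatagtggTGAGTAT
Their levels were 16341, 1455, 2957, 11300, 11300, 3410 and 595 normalized read counts. Sequences with the 18-base core numbered 15, and 13 of them start at the same base. By length, 32.0% of the reads with the core were of 18 nt and 44.2% of 23 nt, with little between. The 2 forms of 23 nt, however, have the same 8332 reads although they differ in letters, and whether these are separate reads was not tested. Equal totals of this kind occurred in 4 pairs, also in ptc-MIR396d-p3 and ptc-miR396e-3p with 1087 reads each, and the second members of the pairs held 0.366% of the reads. The list of families whose letters are like tRNA or rRNA pieces, chosen by family number, holds miR6300, miR5368, miR8175, miR6478 and miR2916. It had 41 of 43 sequences detected and 1.96% of the reads (1.94 to 1.98). No comparison of all families with tRNA or rRNA was made, so the list may not be complete. Its share was 1.65% with equal totals counted once, a setting chosen after seeing the data. The levels of these families were 51618, 15213, 1655, 1145 and 582 normalized read counts in that order. Apart from miR6300 they were led by gma-MIR5368-p3_1ss16CT at 13067, ath-miR8175_L-2 at 1310, ptc-miR6478_R+2_1ss21GA at 1145 and peu-MIR2916-p5_1ss5AG at 498. Their part in the values of the other families was not tested beyond leaving them out, which put the share of reads with a 5′ T at 96.6%.

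**Figure D5:**
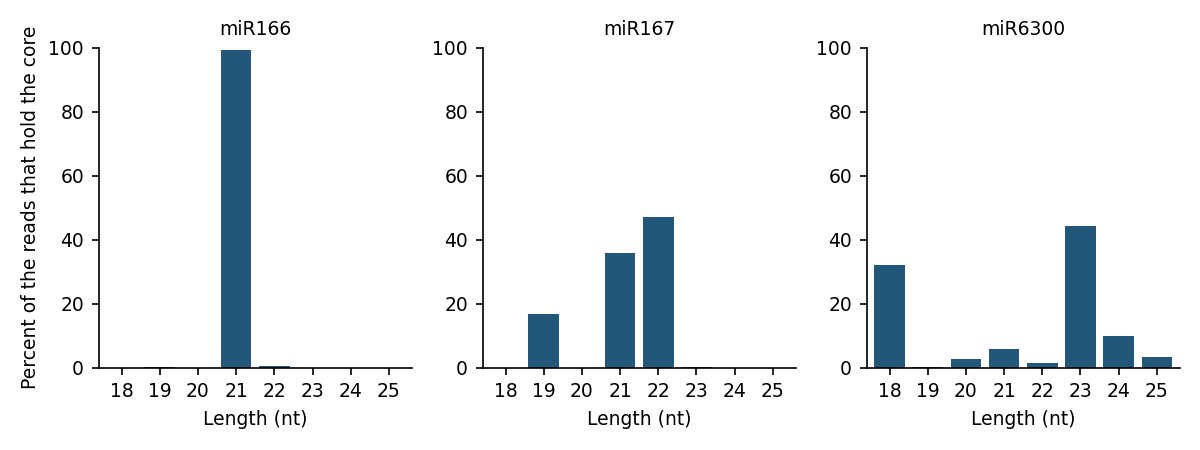
Length in nt (x axis) of the forms that hold the shared core of miR166, miR167 and miR6300, as percent of the reads that hold the core (y axis, from 0 to 100). miR166 is at 99.4% in 21 nt, miR167 is spread over 19, 21 and 22 nt, and miR6300 has its highest bars at 18 and 23 nt.

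Names of Populus trichocarpa covered 97.1% of the reads and 225 of the 409 detected sequences. Names of other species covered 2.91% of the reads in 158 sequences. Of these the soybean names, marked gma, held 1.99%, most of it in miR6300 and miR5368, and the barrel clover names, marked mtr, 0.521%, most of it in mtr-miR159a_1ss21AT. Predicted candidates covered 0.0361% in 26 sequences with a median of 16 reads. The most abundant were PC-3p-15056_476, PC-3p-23282_300 and PC-5p-21240_332, at 225, 160 and 115 normalized read counts, of 23, 21 and 24 nt.
PC-3p-15056_476: tCTCTGCAcagaatcgcctccac
PC-3p-23282_300: tCACACATactgttcagggcg
PC-5p-21240_332: aATCCAACaacaccaagaaaggtc
Of the 26, 9 were of 21 nt, 8 of 24 nt and 4 of 23 nt, and none was of 22 nt. Over all 409 detected sequences, each counted once, 21 nt made up 46.9% and 22 nt 17.1%. Their genome positions were not used here.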

How the data were processed

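The raw values are estimated counts of reads as the authors deposited them, per the file headers, and the normalized values are a linear signal by the authors that equals the raw value times 1 factor per library. The one tool named, per the submitters' processing notes, is bcl2fastq 1.8.4. For the mapper, counting tool, build and microRNA annotation, the sources used here give no name. Of 738 rows, those that share a sequence hold equal values and were summed. Of 131 repeated sequences with reads, 107 had whole totals within 0.01 when summed and 55 as 1 row. Totals were rounded for intervals. 67 of 409 detected sequences kept a fraction, for a reason that was not tested. The number in a name gave its family, so family totals count sequences of both arms. Members, lists and named sequences were chosen with earlier results of these data known. The text names the 20 most abundant sequences, the leading sequence of the 15 most abundant families with some of their next 3 forms, the leading sequence of each listed family with reads, the 5 largest hairpins with both arms named, the lead of each length and first base, and 3 candidates, plus those said to be picked after their values were seen. Forms of a family were compared with its leading sequence over at least 15 bases, with a 5′ shift of up to 7. Row sums and shares were run on simulated data in 20 draws of 529 sequences, where all totals were recovered and 132 of 140 Wilson intervals held the true share. The simulated totals were split equally over their rows and summed again, so this checked the arithmetic only. It cannot show whether repeated rows should be summed. Python 3.11.15, pandas 2.3.3 and SciPy 1.17.1 were used.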

Additional observations from a re-analysis of the deposited data

How the results depend on the processing

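With 1 pooled library, no replicate could be left out. No paired analysis was possible because each dose has 1 library. Shares within 1 library do not depend on the normalization factor, and no log scale was used. Leaving out sequences under 10 reads kept every share within its interval, and left 331 of 409 sequences.

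With 1 row used once, the top 10 sequences held 86.7% of the reads, miR472, miR482 and miR1448 82.2%, 22 nt 83.2%, 21 nt 15.1%, a 5′ T 95.05%, suffixed names 38.01%, the 3′ arm 71.7% of the reads with a named arm, and transfer or ribosomal RNA-like names 1.41%. Without ptc-miR472a, 22 nt held 55.7%, 21 nt 41.05%, a 5′ T 93.2% and suffixed names 42.1%. Counting each sequence once gave 17.1% for 22 nt, 46.9% for 21 nt, 46.9% for a 5′ T, 51.6% for suffixed names and 47.8% for the 3′ arm. Without the transfer or ribosomal RNA-like names the top 10 held 84.7% and a 5′ T 96.6%. With equal totals counted once, added after the data were seen, the values were 83.3% for the top 10, 65.8% for 22 nt, 32.01% for 21 nt and 1.65% for these names. The depth limits the 78 sequences under 10 reads.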

Other observations

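Of the 120 sequences listed at 0 reads, 71 belong to families that had reads in other sequences, 18 are candidates and the remainder make up 26 families with no read in this library. These 26 families had 1 to 3 listed sequences each, and miR2111, a family tied to phosphate supply and to signals between shoot and root, is among them.

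Weighted by reads, 54.3% of the bases were G or C, and the median detected sequence had 47.6%.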
